A study of Mus musculus with 8 samples.

Results

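The genes described here are those that take up fatty acids and burn them in mitochondria and peroxisomes: 33 genes chosen by name from 37074 gene names on the array, among them transporters, acyl-CoA synthetases, the carnitine shuttle, the β-oxidation spiral and the proteins that take its electrons. All 33 were found, with 55 probes (60-base sequences spotted on the array) out of 56605. The probe with the highest mean signal over the 8 arrays (the brightest probe) stood for a gene in the tallies, and the other probes of the gene were read beside it. RNA came from tissue labelled as interscapular BAT of C57BL/6J mice, male by the study's methods and 12 weeks old, read on 8 Agilent one-color arrays, 1 per sample, and whether a sample is 1 mouse or a pool is not given in the sources used here. The mice of the 4 Co samples had received 100 μL of saline intravenously, and those of the 4 Pg samples the same volume with sonicated *Porphyromonas gingivalis*, a periodontal bacterium, at a dose that the labels print as 108 CFU and the methods write as a power of 10. Tissue was taken 18 h after this single injection, so the comparison asks how a short endotoxemia left the expression of these genes.

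Fatty acids enter a cell with the help of CD36 and the fatty acid transport proteins, are bound by fatty acid binding proteins, and are trapped as acyl-CoA by the ACSL synthetases. The carnitine shuttle carries long-chain acyl groups into the mitochondrion, where each turn of the spiral shortens the chain by an acetyl unit and hands electrons to the respiratory chain. BAT is known for a high capacity of this pathway, which fuels heat production through UCP1, and heart and skeletal muscle use it as well.

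Signals are given on a log2 scale after quantile normalization, where a difference of 1 is a doubling, and a level of one probe is not comparable with that of another. Probes well above background numbered 34760 to 35831 per Co array and 31132 to 34063 per Pg array, without overlap (p = 0.0286 by a two-sided exact permutation test, which is the lowest value this number of arrays can reach). All arrays lay on 1 slide, Co in row 1 and Pg in row 2, so that position and group cannot be told apart. The label BAT was checked against markers, and some typical ones went against it. *Ucp1* and *Elovl3*, genes typical of brown adipocytes, were well above background on none of the 8 arrays. In contrast, 8 of 10 brown adipocyte genes, *Cidea* among them, all 10 adipocyte genes and all 18 skeletal muscle genes were above it on all 8. The study measured *Ucp1* by quantitative PCR in BAT and reports it as lower in Pg mice, so that method detected it. Why the arrays gave no *Ucp1* signal was not tested. The median signal of each list is given to compare Co with Pg only, not one list with another. For the muscle list it ranged from 17.59 to 17.68 in Co and from 17.61 to 17.70 in Pg mice. Within this list, *Myh4* ranged from 13.38 to 16.97 in Co and from 11.38 to 17.07 in Pg mice. *Actn3* ranged from 11.78 to 13.65 in Co and from 10.49 to 14.01 in Pg mice. Both were lowest on Co replicate 3 and Pg replicate 1 of their groups, which the median does not show. For the brown list the median ranged from 7.80 to 8.26 in Co and from 8.09 to 8.59 in Pg mice. The median of 5 neutrophil genes was 4.56 to 5.33 in Co and 5.18 to 8.59 in Pg mice, that of 6 macrophage genes 9.27 to 9.74 and 8.93 to 9.87, that of 7 endothelial genes 10.10 to 10.67 and 10.13 to 10.28, and that of 3 red blood cell genes 16.05 to 16.86 and 14.52 to 16.95. Tested were 18 muscle, 8 brown, 10 adipocyte, 6 macrophage, 4 neutrophil and 3 red blood cell genes, and none of these passed. *Kdr* of the endothelial and *Myh6* of 3 tested cardiac genes were higher, and none of 3 liver genes was tested. The part of these cells in the results below was not tested, and in bulk tissue fewer cells of a type and less RNA per cell cannot be told apart.

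The results turn on probes of one gene that read different stretches of its transcripts, so the first 30 of the 60 bases of the probes of *Acsl1*, *Cpt2*, *Crat* and *Hadhb*, and of the only probes of *Hadh* and *Slc27a1*, are shown 5′ to 3′ as the scanner output gives them. Positions are on mm9, and exon and intron annotation of that build was not used here.
Acsl1, brightest, chr8:47621232-47621291 (+), base 3723 of NM_007981: gcctaacttcatactcgtattcttaattgc
Acsl1, upstream, chr8:47620082-47620141 (+), base 2573 of NM_007981: ggggaacccataaaagtgctaagttattta
Acsl1, other transcript, chr8:47601866-47601925 (+), base 5512 of ENSMUST00000128746: tgctgcaaatagtggaggttatgtttgttc
Cpt2, brightest, chr4:107576571-107576610 (-), base 2253 of NM_009949: actgcagctctaaagcccttcttaaggaga
Cpt2, upstream, chr4:107580325-107580384 (-), base 909 of NM_009949: attgtgaatccctcagaaatccaggcacat
Crat, brightest, chr2:30257684-30257743 (-), base 2645 of NM_007760: caaaatctgtcttcattggtaaatgcccaa
Crat, upstream, chr2:30265479-30265538 (-), base 758 of NM_007760: tactccagcccaggagtgatcctgcccaag
Hadhb, brightest, chr5:30510925-30510984 (+), base 1866 of NM_001289798: gaatcgtctttgtaacatttgcagatactc
Hadhb, upstream, chr5:30503442-30503500 (+), base 970 of NM_001289798: accaaagataatgggatccgtccttcctca
Hadhb, other transcript, chr5:30494754-30494813 (+), base 4328 of ENSMUST00000127364: tgtacacgttgtcccttgacttccccaagt
Hadh, chr3:130936889-130936948 (-), base 1177 of NM_008212: agtcatggggttcttccactgaaatggaat
Slc27a1, chr8:74110256-74110315 (+), base 2443 of NM_011977: ggtacccacctccctttcctattgtgcctt

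Expression of the fatty acid genes was close in Co and Pg mice. All 33 brightest probes were well above background on all 8 arrays, and their log2 fold changes (Pg minus Co) ran from -0.66 to 0.18, with a median of -0.05. *Crat*, *Hadh* and *Slc27a1* fell, by 0.23 to 0.26 on the log2 scale, at an FDR q under 0.1 over all probes tested, and no gene rose. By their brightest probes, none of the 33 was a DEG, which asks also for a fold change above 1.5. In the limma fit of 33819 probes, 7.82% had a q under 0.1, 6.00% were lower at that q, and 1.61% were DEGs. Over the brightest probes of all 22323 genes the share with a q under 0.1 was 6.23%. Unadjusted p-values under 0.05 were found for 10 of the 33 (8 lower and 2 higher), a share of 30.3%. The share was 22.8% of all probes and 20.3% of the brightest probes of all genes.

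Of the brightest probes, 22 were lower and 11 higher in Pg mice (66.7% lower), against 57.7% lower among all probes tested (median -0.04). The share was 52.8% among the brightest probes of all genes (median -0.01). It was 48% among the 13001 other genes at least as bright as the dimmest of the 33 (median 0.01). These 13001 had a median level of 10.87 against 15.19 for the 33, so brightness was not matched. For 8 of the 33, 6 lower and 2 higher, the ranges of both groups were apart, as they were for 15.8% of all probes tested. With scaling to the 75th percentile 24 were lower and the median was -0.11, and with the mean of all tested probes of a gene 25 were lower, the median was -0.12 and 5 genes had a q under 0.1. With 1 array left out, at most 1 of the 33 kept a q under 0.1.

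**Figure D1:**
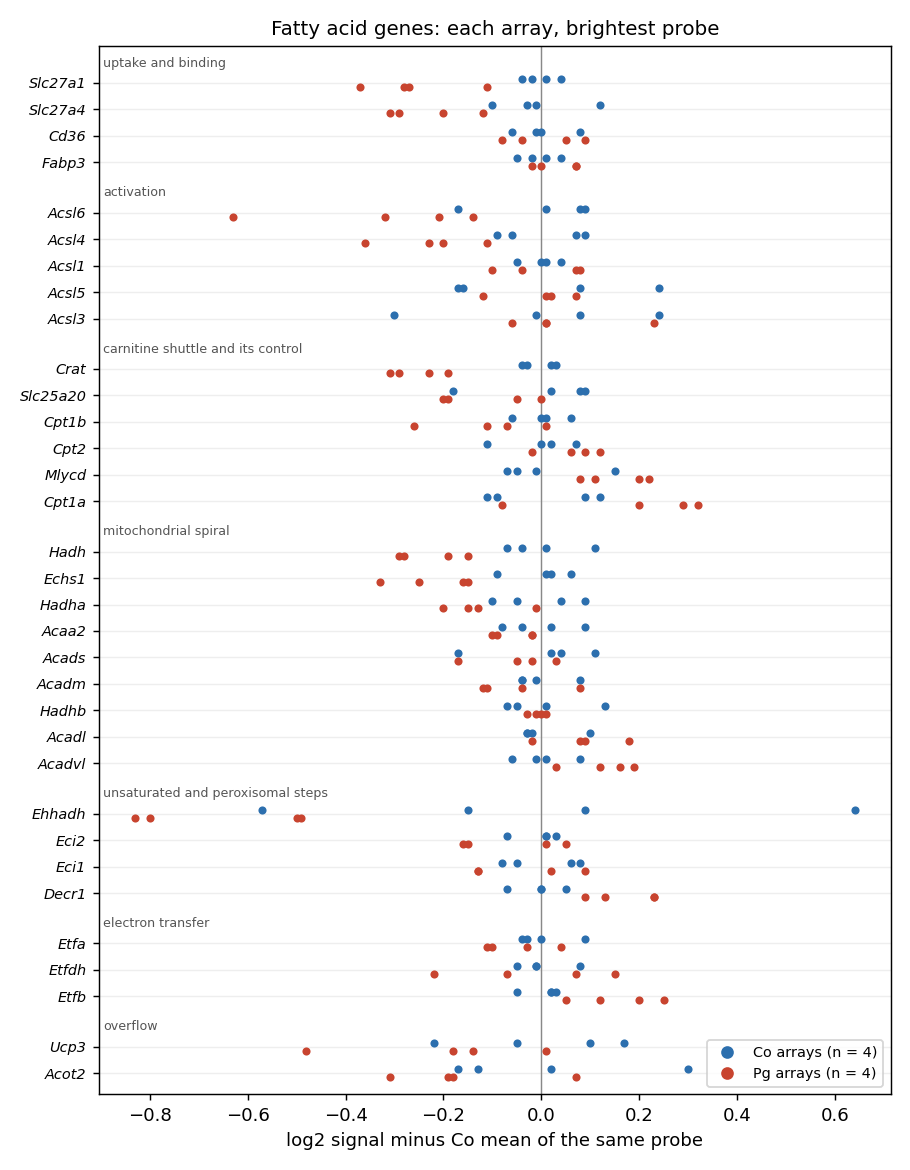
Each point is 1 array: the log2 signal of the brightest probe of a gene minus the mean of the 4 Co arrays for that probe (x axis), with Co arrays in blue and Pg arrays in red and the 33 genes grouped by role (y axis). The Pg arrays of *Slc27a1*, *Slc27a4*, *Acsl4*, *Crat*, *Hadh* and *Echs1* lay below all Co arrays, those of *Decr1* and *Etfb* above, and *Ehhadh* had the widest spread.

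Among the genes of uptake and binding, both transport proteins were lower in Pg mice while *Cd36* and *Fabp3* moved by at most 0.03. *Slc27a1*, which encodes FATP1, a transport protein of muscle and fat, was 12.70, 12.72, 12.75 and 12.78 on the Co arrays and 12.37, 12.46, 12.47 and 12.63 on the Pg arrays. Every Pg array lay below every Co array. The gene fell by 0.26 (standard error 0.07, adjusted p = 0.0846), a 1.19-fold lower signal.

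*Slc27a4*, which encodes the related FATP4, was 8.13, 8.06, 8.28 and 8.15 in Co mice and 8.04, 7.87, 7.85 and 7.96 in Pg mice. The groups did not overlap, but the log2 fold change of -0.23 had an adjusted p of 0.121, and no array detected the second probe of the gene above background. With the median signal this adjusted p was 0.0833. The scavenger receptor *Cd36* was 14.46 to 14.60 in Co and 14.44 to 14.61 in Pg mice, with a 95% confidence interval of the log2 fold change from -0.14 to 0.15. The brightest probe of *Fabp3*, the heart and muscle type binding protein, had an interval from -0.09 to 0.15, and its second probe, which overlaps the first on the transcript, also had a log2 fold change of 0.03. The *Slc27a1* call was kept without Pg replicate 4 (adjusted p = 0.0913) and lost when any of the other arrays was left out (adjusted p = 0.125 to 0.168) and without normalization between arrays (0.235) or without the filter on dim probes (0.116).

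The 5 acyl-CoA synthetases had no call on their brightest probes, 3 lower and 2 higher, with log2 fold changes from -0.33 to 0.04. *Acsl6*, a synthetase best known from brain, red blood cells and muscle, was 9.65, 9.83, 9.91 and 9.90 in Co mice and 9.50, 9.19, 9.68 and 9.61 in Pg mice. Pg replicate 3 lay above Co replicate 1, so the groups overlapped, and the log2 fold change of -0.33 had an adjusted p of 0.153. *Acsl4*, which prefers arachidonic acid, was 11.21, 11.39, 11.37 and 11.24 in Co mice and 11.19, 10.94, 11.10 and 11.07 in Pg mice.

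All Pg arrays of *Acsl4* lay below the Co arrays, and the difference was -0.23 on the log2 scale (adjusted p = 0.133). It shrank to -0.14 with the median signal, and with the mean of the gene's probes its adjusted p was 0.0989. Its probe 2612 bases further 5′ on the same transcript fell by 0.34 (adjusted p = 0.0816), from 7.80 to 7.85 in Co mice to 7.33 to 7.72 in Pg mice. A probe that overlaps this one was at -0.16 (adjusted p = 0.172), also without overlap of the groups. *Acsl3* (0.04) and *Acsl5* (0.00), synthetases of lipid droplets and of the endoplasmic reticulum and mitochondria, had intervals from -0.23 to 0.32 and from -0.24 to 0.24. *Acsl1*, the main synthetase of fat, heart and muscle, is described with its other probes below.

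In the carnitine shuttle, *Crat* was the only gene whose brightest probe passed the test, and it fell, with 3 of the 6 brightest probes lower and 3 higher. CRAT, carnitine acetyltransferase, moves acetyl groups between CoA and carnitine. Its brightest probe was 16.31, 16.30, 16.36 and 16.37 in Co mice and 16.15, 16.03, 16.11 and 16.05 in Pg mice.

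The groups of *Crat* were apart, with a fall of 0.25 (standard error 0.05, adjusted p = 0.0613), the smallest adjusted p among the 33 genes. Its second probe fell by 0.36 (standard error 0.09, adjusted p = 0.0871), so both probes of the gene passed the test. Neither reached the fold change limit of a DEG. Without single arrays the call of the brightest probe was kept only without Pg replicate 3 (adjusted p = 0.0841) and lost without any other (0.101 to 0.132), and it was lost without normalization between arrays (0.247).

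*Cpt1a*, the liver type of the enzyme that gates entry, was 9.68, 9.66, 9.89 and 9.86 in Co mice and 9.97, 10.09, 9.69 and 10.06 in Pg mice. Pg replicate 3 lay within the range of the Co arrays, and the log2 fold change of 0.18 (adjusted p = 0.334) was the highest of the 33 genes. *Cpt1b*, the muscle type, was at -0.11 (interval -0.27 to 0.05), and the carnitine carrier *Slc25a20* at -0.12 (interval -0.31 to 0.08). *Mlycd*, whose enzyme removes the CPT1 inhibitor malonyl-CoA, was at 0.15 (adjusted p = 0.252) on its brightest probe and at -0.14 (adjusted p = 0.412) on its other probe.

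Of the 9 genes of the mitochondrial spiral, 7 were lower and 2 higher in Pg mice, between -0.23 and 0.12, and *Hadh* was the only one to pass the test on the brightest probe. HADH is the dehydrogenase for short and medium-chain hydroxyacyl-CoA. Its probe was 15.27, 15.24, 15.32 and 15.42 on the Co arrays and 15.02, 15.03, 15.16 and 15.12 on the Pg arrays.

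All Pg arrays lay below the Co arrays, and *Hadh* fell by 0.23 (standard error 0.06, adjusted p = 0.0963), a value close to the threshold that was lost when any array was left out (adjusted p = 0.104 to 0.187). It was lost as well without normalization between arrays (0.271) and without the filter on dim probes (0.125). *Echs1*, the hydratase of the spiral, was 14.83, 14.72, 14.87 and 14.82 in Co mice and 14.56, 14.48, 14.66 and 14.65 in Pg mice. Its groups did not overlap either, at -0.22 (adjusted p = 0.11), and its other probe near the start of the transcript was at -0.02. The adjusted p of the brightest *Echs1* probe came to 0.0588 after normexp, to 0.0805 from median pixel signals and to 0.0919 among probes detected on all arrays, and with the mean of both probes the difference was -0.12 (0.31).

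The acyl-CoA dehydrogenases open the spiral for very long, long, medium and short chains, and their genes lay at 0.12 for *Acadvl*, 0.08 for *Acadl*, -0.04 for *Acadm* and -0.05 for *Acads*, none with an adjusted p under 0.264. The trifunctional protein subunits were at -0.12 for *Hadha* (adjusted p = 0.346) and -0.01 for the brightest probe of *Hadhb* (adjusted p = 0.931). The thiolase *Acaa2* was at -0.05, with a confidence interval from -0.19 to 0.09.

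Among the enzymes for unsaturated chains and of peroxisomes, *Ehhadh*, the peroxisomal bifunctional enzyme, had the largest difference of any brightest probe and the widest spread. It was 9.73, 9.07, 10.28 and 9.49 in Co mice and 8.84, 8.81, 9.14 and 9.15 in Pg mice. Co replicate 2 lay below Pg replicates 3 and 4. The SD was 0.51 in Co and 0.19 in Pg mice (n = 4 each), and the log2 fold change of -0.66 (interval -1.21 to -0.11) had an adjusted p of 0.16, with values from -0.85 to -0.45 over the alternatives run.

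*Decr1*, the reductase for polyunsaturated chains, was 16.04, 15.97, 16.09 and 16.04 in Co mice and 16.17, 16.27, 16.13 and 16.27 in Pg mice. Every Pg array was above every Co array, and the log2 fold change of 0.17 (standard error 0.06) had an adjusted p of 0.134, which was 0.0677 with normexp and 0.0862 if medians of the spot pixels were used. The isomerases *Eci1* and *Eci2* were at -0.04 and -0.06 on their brightest probes. A second probe of *Eci2*, 622 bases further 5′, fell by 0.20 (adjusted p = 0.0997), from 12.92 to 13.00 in Co mice to 12.69 to 12.84 in Pg mice.

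The electron transfer flavoprotein hands the electrons of the dehydrogenases on to ETFDH. *Etfb*, its beta subunit, was 16.99, 16.98, 16.98 and 16.91 in Co mice and 17.21, 17.08, 17.16 and 17.01 in Pg mice, apart and at 0.15 (adjusted p = 0.195). Its difference was 0.05 to 0.06 with normexp, the median signal, scaling to the 75th percentile or the authors' values. The other probe of *Etfb* was at 0.03 (adjusted p = 0.827), with overlap. *Etfa*, the alpha subunit, was 16.37, 16.36, 16.49 and 16.40 in Co mice and 16.37, 16.30, 16.29 and 16.44 in Pg mice, with overlap, at -0.05 (adjusted p = 0.63). Its probe 705 bases further 5′ was at -0.17 with the groups apart (adjusted p = 0.103), and a probe between them at -0.13 (adjusted p = 0.277).

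*Etfdh* was at -0.02, with an interval from -0.22 to 0.18. The mitochondrial thioesterase *Acot2* was 14.06, 13.63, 13.78 and 13.59 in Co mice and 13.83, 13.45, 13.57 and 13.58 in Pg mice, with overlap, at -0.16 (adjusted p = 0.502), which was -0.06 without Co replicate 1 and -0.10 without Pg replicate 2. *Ucp3*, a mitochondrial carrier of muscle and BAT linked to fatty acid use, was 11.71, 11.64, 11.32 and 11.49 in Co mice and 11.06, 11.55, 11.40 and 11.36 in Pg mice. Pg replicate 1 was the lowest array of *Ucp3*, the others overlapped, and the log2 fold change of -0.20 (adjusted p = 0.387) was -0.10 without that array.

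**Figure D2:**
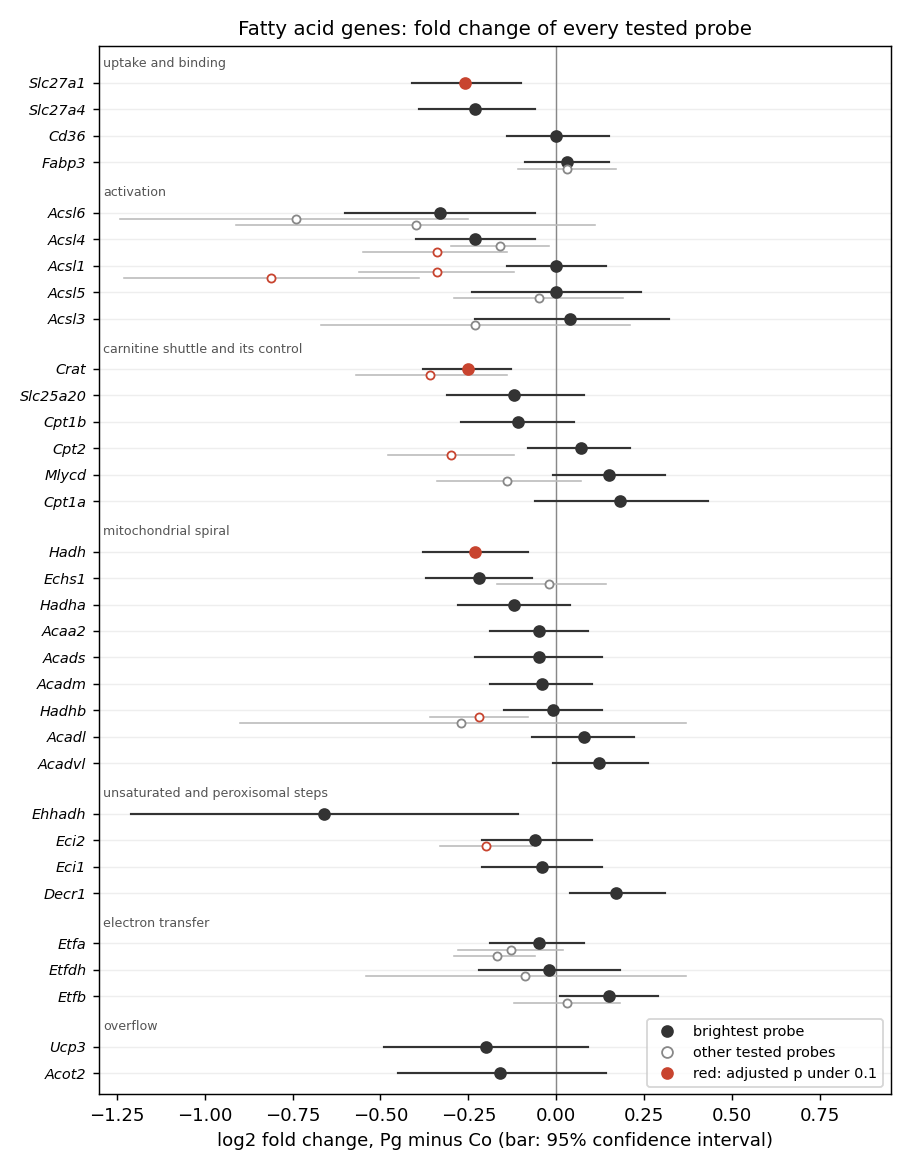
The log2 fold change, Pg minus Co (x axis), with its 95% confidence interval is shown for every tested probe of the 33 genes (y axis), filled for the brightest probe and open for the others, in red where the adjusted p was under 0.1. The 10 red points all lie below 0, and 7 of them are open.

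Read by every probe instead of one, 40 of 53 tested probes were lower in Pg mice (75.5%, against 57.7% of all probes tested). A q under 0.1, which 7.82% of all probes had, was found for 10 of the 53, all lower, in 8 genes: *Acsl1*, *Acsl4*, *Cpt2*, *Crat*, *Eci2*, *Hadh*, *Hadhb* and *Slc27a1*. For *Acsl1*, *Acsl4*, *Cpt2*, *Eci2* and *Hadhb* the call came only from a probe that was not the brightest. The 20 tested probes that were not the brightest of their gene had a median log2 fold change of -0.21, 18 of them were lower, 7 had a q under 0.1, and the groups did not overlap for 10 (50%, against 15.8% of all probes). These shares were not tested. Of the 20, 2 probes of *Acsl6* entered through the Co arrays, where they were above background, so the filter favoured a lower value in Pg mice. Of the 18 above background on all arrays, 16 were lower, 7 had a q under 0.1, the groups did not overlap for 9, and 16 lay below the brightest probe of their gene.

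The 7 calls on these other probes depended on single arrays. The upstream probes of *Acsl1*, *Cpt2*, *Crat*, *Eci2* and *Hadhb* lost theirs when any array was left out, that of *Acsl4* kept it only without Pg replicate 1 (adjusted p = 0.0858), and the third probe of *Acsl1* only without Pg replicate 3 (0.0521). All 7 were lost without normalization between arrays (0.178 to 0.383) and without the filter on dim probes (0.109 to 0.145). In the authors' values the upstream probes were at -0.19 for *Acsl1* (0.204), -0.12 for *Eci2* (0.293) and -0.11 for *Hadhb* (0.339), while the third probe of *Acsl1* kept its call at -0.68 (0.0572).

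*Acsl1* differed most between its probes. The brightest was 16.20, 16.14, 16.23 and 16.19 in Co mice and 16.27, 16.09, 16.15 and 16.26 in Pg mice, so its log2 fold change was 0.00 (interval -0.14 to 0.14). The probe 1150 bases further 5′ on NM_007981 was 13.16, 13.27, 13.29 and 13.40 in Co mice and 13.02, 12.71, 12.94 and 13.08 in Pg mice. It lay lower on every Pg array than on any Co array and fell by 0.34 (standard error 0.10, adjusted p = 0.0983).

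The third probe of *Acsl1*, on ENSMUST00000128746, was 7.47, 7.45, 7.45 and 7.12 in Co mice and 6.38, 6.70, 6.99 and 6.16 in Pg mice. It fell by 0.81 (standard error 0.18, adjusted p = 0.0659), a 1.76-fold lower signal, and was the only DEG probe of the 33 genes. With normexp it was at -0.56, under the fold change limit of a DEG. Whether *Acsl1* counts as lower thus depended on the probe.

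*Cpt2*, the enzyme that reforms acyl-CoA inside the mitochondrion, showed opposite signs. Its brightest probe was 15.38, 15.20, 15.31 and 15.33 in Co mice and 15.40, 15.43, 15.37 and 15.29 in Pg mice, at 0.07 (interval -0.08 to 0.21). Its probe 1344 bases further 5′ was 10.41, 10.24, 10.46 and 10.39 in Co mice and 10.05, 10.17, 10.16 and 9.93 in Pg mice. The groups overlapped on the first and were apart on the second, which fell by 0.30 (standard error 0.08, adjusted p = 0.0871).

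For *Crat* the 2 probes, 1887 bases apart, moved the same way. The upstream one was 10.54, 10.55, 10.39 and 10.51 in Co mice and 10.25, 10.29, 10.11 and 9.91 in Pg mice. For *Hadhb* the brightest probe was 17.00 to 17.20 in Co and 17.04 to 17.08 in Pg mice, whereas the probe 896 bases further 5′ was 14.89, 14.83, 15.00 and 15.02 in Co mice and 14.76, 14.71, 14.69 and 14.69 in Pg mice.

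This upstream probe of *Hadhb* fell by 0.22 (standard error 0.06, adjusted p = 0.0979). The third *Hadhb* probe, on ENSMUST00000127364, had an SD of 0.55 in Co mice and stood at -0.27 (adjusted p = 0.599). Of the 2 dim probes of *Acsl6*, one was at -0.74 (adjusted p = 0.104) and passed background on 4 Co but only 2 Pg arrays, and the other was at -0.40 (adjusted p = 0.317) and passed it on 4 Co arrays and 1 Pg array.

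**Figure D3:**
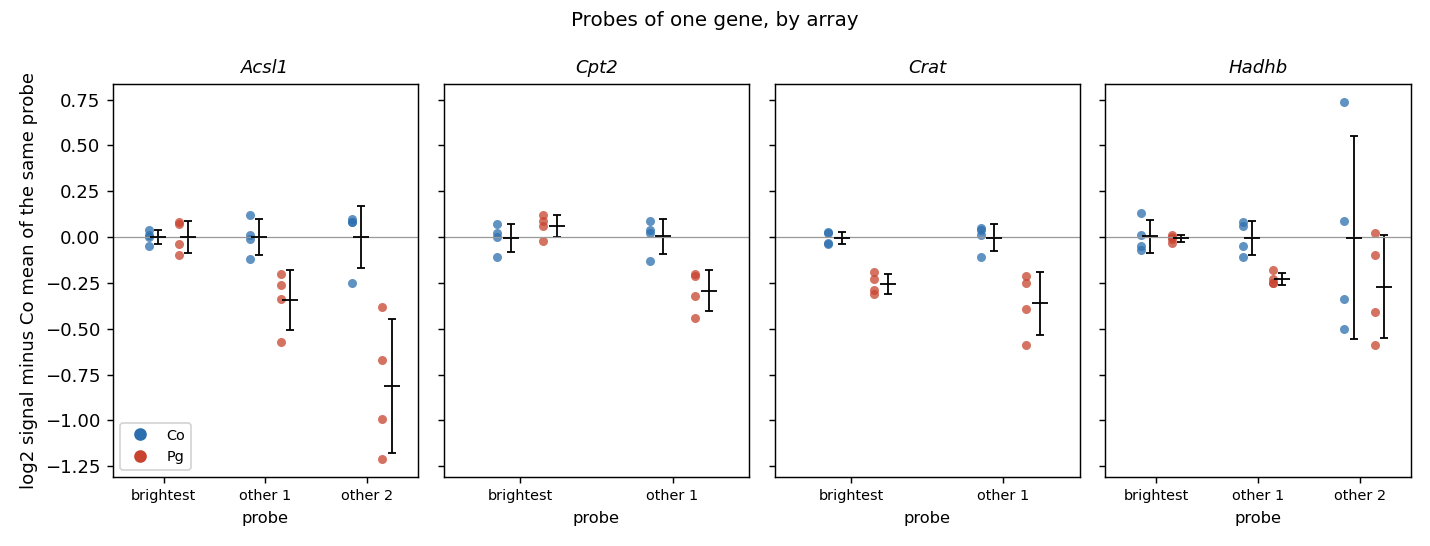
Each point is 1 array: the log2 signal minus the mean of the 4 Co arrays of the same probe (y axis), for the probes of *Acsl1*, *Cpt2*, *Crat* and *Hadhb* ordered by signal (x axis), with black bars for the group mean and SD (n = 4 arrays). Co and Pg overlap on the brightest probe of *Acsl1*, *Cpt2* and *Hadhb* and are apart on the next probe of each, while both *Crat* probes are apart.

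Across the 15 genes with several tested probes, the log2 fold change of the other probe lay below that of the brightest for 18 of 20 probes, with a median difference of -0.12. The exceptions were *Echs1* (0.20) and 1 probe of *Acsl4* (0.07). Over the whole array 67.7% of 11496 such probes lay below the brightest probe of their gene, with a median difference of -0.11, and the 2 shares were not tested against each other. The median over the array depended on the processing: it was -0.07 after normexp or from median pixel signals and -0.05 after 75th percentile scaling, without normalization or in the authors' values. Over the fatty acid genes it was -0.11, -0.14, -0.11, -0.11 and -0.08 under these settings, in the order given. Over the whole array the median was -0.03 where the other probe was less than 1 log2 unit dimmer and -0.19 where it was 6 or more dimmer.

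Read by place on the transcript, 10 of 11 fatty acid genes with probes at least 200 bases apart on 1 RefSeq transcript had the lower fold change on the 5′ probe, with a median difference of -0.14 and *Echs1* as the exception. Over 4276 such pairs of all genes the share was 71.1%, with a median of -0.13. The 5′ probe of *Acsl6* entered through the Co arrays, so the filter favoured a lower value in Pg mice there. With both probes over a log2 signal of 8, the 5′ probe was lower in 7 of 8 fatty acid genes (median -0.18). Over 1797 such pairs of all genes it was lower in 73.4% (median -0.11). In all 11 genes the 5′ probe was also the dimmer one, so place and brightness cannot be told apart for them. Where the 5′ probe was dimmer, as in 3713 pairs of all genes, it was lower in 75.6% (median -0.15), and where it was brighter, in 563 pairs, in 41.4% (median 0.06).

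Per array, the median 5′ minus 3′ difference in signal over all 4276 pairs was -2.19 to -2.16 in Co mice and -2.36 to -2.29 in Pg mice (p = 0.0286 by the same exact test, again the lowest it can reach). Over the 11 fatty acid genes it was -3.57 to -3.37 and -3.86 to -3.61. On both counts the Pg arrays lay lower without overlap. What moved the 5′ and dimmer probes was not tested.

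**Figure D4:**
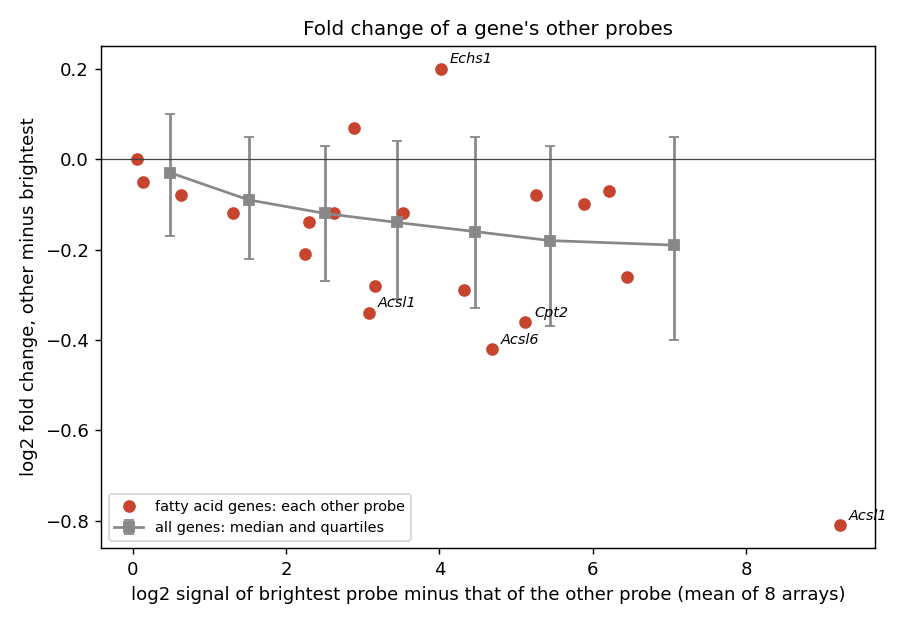
The y axis gives the log2 fold change of a gene's other probe minus that of its brightest probe, the x axis how much dimmer the other probe was (log2 signal, mean of 8 arrays). Grey squares and bars are the median and quartiles over 11496 probes of all genes, from -0.03 at the smallest gap to -0.19 at the widest, and the 20 red points are probes of the fatty acid genes, of which 18 lie below 0 and that of *Acsl1* at -0.81.

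The wider pathway was read through 45 further genes of lipoprotein lipolysis, carnitine transport, peroxisomal oxidation, acyl-CoA hydrolysis and malonyl-CoA control. Of these, 41 were tested, 25 lower and 16 higher, with a median of -0.03. The groups did not overlap for 7, a share near the 15.8% of all probes tested. *Fabp1*, *Fabp7*, *Slc27a2* and *Slc27a6* were not well above background on any array. *Lpl*, which frees fatty acids from lipoproteins, was 16.90, 16.85, 17.15 and 17.10 in Co mice and 16.94, 16.80, 16.91 and 16.91 in Pg mice, with overlap, at -0.11 (adjusted p = 0.463).

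Of 9 genes outside the pathway that respond to PPARs, nuclear receptors that switch on fatty acid use, 8 were tested, 5 lower and 3 higher. *Txnip*, an arrestin-like regulator of glucose uptake, was 16.58, 16.34, 16.29 and 16.39 in Co mice and 15.94, 16.13, 16.12 and 15.91 in Pg mice, apart, and fell by 0.38 (standard error 0.09, adjusted p = 0.0704). *Angptl4*, an inhibitor of LPL, was at -0.47 (adjusted p = 0.163, overlapping groups), and *Pdk4*, the kinase that shuts off pyruvate oxidation, at 0.06 (adjusted p = 0.632).

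Promoters of 29 of the 33 genes (34 windows, from 250 bases before to 50 after a start site, RefSeq on GRCm38.p6) were searched on both strands. The motifs were those of nuclear receptors and, apart from these, an E-box. *Acaa2*, *Cpt1b*, *Crat* and *Decr1* had no entry. AGGTCA, the half-site of nuclear receptors, was in 7 of the 34 windows (20.6%), against 16.3% of 32851 windows of all genes, and these were of *Acadm*, *Acadvl*, *Acsl6*, *Cd36*, *Cpt1a*, *Echs1* and *Ucp3*. The direct repeat of AGGTCA with 1 base between the copies was in 0 of the 34 and 0.0396% of all. TCAAGGTCA, which holds AGGTCA, was in that of *Acsl6* (0.423% of all windows), and CACGTG, an E-box, in 1 window, that of *Slc27a1* (7.15% of all). Neither *Hadh* nor *Slc27a1*, which fell, held AGGTCA in these windows, and neither did most windows of all genes. Its absence there cannot tell whether such receptors act on these genes.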

How the data were processed

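The authors deposited, per array, Feature Extraction 11.0.1.1 output with the intensity of each spot (processed, mean, median and background) and marks for background, saturation and outliers. They also deposited a table of 28067 entries with normalized log2 values of the 8 arrays, used as an alternative, beside columns of their own comparison (log2 fold changes, mean levels, p-values, adjusted p-values, moderated t and log odds), which were not used here.

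Processed intensities of non-control spots were averaged per probe without outlier spots, quantile-normalized between arrays, set to at least 1 and put on the log2 scale in R 4.3.3 (package data.table, 1.17.8). The 33819 of 56605 probes well above background on at least 4 of 8 arrays entered a moderated linear model (limma 3.58.1, lmFit and eBayes), whose two-sided p-values were adjusted by Benjamini-Hochberg to give q. DEGs were probes changed more than 1.5-fold at q under 0.1. The fit was tested on simulated data. The sources used here do not say whether a sample is 1 mouse or a pool, so p-values measure only the spread between these samples, which may be technical, and 4 arrays per group limit the precision.

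The genes and lists were chosen with earlier results of these data known. By rule, values of every array were given for genes with a q under 0.1, for the 2 largest changes of each role and for genes whose probes opposed each other by over 0.3. The arrays of the other probes, of *Lpl* and of *Txnip* were printed after their values were seen. Some results of the wider pathway are not reported here. Alternatives were normexp (offset 50), the median signal, scaling to the 75th percentile, no normalization, other filters, the authors' values, a replicate block, the mean of a gene's probes and leaving out each array. The count of probes below the brightest, its alternatives and the counts over other probes above background on all arrays were added after seeing the data.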

Additional observations from a re-analysis of the deposited data

Results flagged for a closer look

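For the brightest probe of *Acadl*, the long-chain acyl-CoA dehydrogenase, Co replicate 1 had a value of 15.88 while the rest of the group was between 15.75 and 15.76, a gap of 0.956 of the range of the group. It was the 1 group with such a gap of 66 examined (33 genes in 2 groups), where chance sets about 1 in 20 groups apart.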

How the results depend on the processing

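No probe with a q under 0.1 or among the 2 largest changes of its role changed sign under the alternatives run. The count of the 33 genes with a q under 0.1 was 5 with normexp, 6 with the median signal, 0 without normalization, 1 without the filter on dim probes and 5 with the mean of a gene's probes, and 0 to 1 with 1 array left out. The median of the 33 was -0.11 with scaling to the 75th percentile and -0.12 with the mean of a gene's probes. DEG probes over the array numbered 546, and 94 with normexp, 108 with the median signal, 283 with scaling to the 75th percentile, 27 without normalization, 318 with all 8 arrays above background, 106 with the authors' values, and 3 to 697 with 1 array left out. The 3 is without Co replicate 3. The direction of the DEG probes depended on the processing. Of the 546, 440 were lower in Pg mice and 106 higher. Normexp gave 28 lower and 66 higher, median signals 33 and 75, the authors' values 46 and 60, and no normalization 7 and 20. More were lower under 75th percentile scaling (146, against 137 higher). The same held with all 8 arrays above background (211 and 107) and without the filter on dim probes (290 and 82). With any 1 array left out more were lower as well. The number of the 20 other probes below the brightest of their gene was 14 to 18 with 1 array left out, and 4 of 4 in the authors' values, which hold fewer of them.

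Same-numbered Co and Pg arrays shared a column of the slide. The correlations of their deviations were 0.06, -0.03, -0.07 and 0.18, against -0.15 to 0.13 for the other pairs. They are too few to tell whether the replicate numbers pair the arrays. With the replicate block 0 probes had a q under 0.1 and 0 were DEGs, so 0 of the 33 genes passed. Dim probes limit the reading of *Acsl6*. The causes were not tested.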
